A study of Mus musculus with 4 samples.

Results

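Ribosome-bound RNA was pulled down with a tag aimed at CA1 neurons active during sleep deprivation (SD). In it, a set of 10 genes that encode granins and neuropeptides was examined. They were the granin family genes Vgf, Scg2, Scg3, Chga and Chgb and the peptide precursor genes Penk, Pdyn, Adcyap1, Crh and Tac2, taken by gene name from the deposited count table. All 10 were among the 28193 genes of the table, and all 10 passed the minimum of more than 5 counts in every library that left 22338 genes for testing. Only Penk, the enkephalin precursor, passed the edgeR test without the replicate block, where 2.33% of all tested genes were called lower. It fell to 0.706 of its NSD level and did not pass under some alternative settings given below. Vgf and Adcyap1 were above NSD in both SD libraries, as were 22.0% of all tested genes. Both passed when the batch number was included in the edgeR fit, where 2.99% of all tested genes were called higher. Adcyap1 passed with DESeq2 as well, where again 2.99% were.

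fosTRAP-seq sequences the RNA on ribosomes that carry an HA-tagged copy of the ribosomal protein Rpl22, a tag aimed at cells whose c-Fos promoter was active while 4-hydroxytamoxifen was present, with some background labelling without the drug. The SD and NSD groups were male mice of 3 to 5 months, and both groups were kept awake for 5 h on day 0, when the neurons were tagged. On day 7 the SD mice were kept awake for 5 h by gentle handling and the NSD mice were left undisturbed, and tissue was taken at ZT 5. Each library pooled the tissue of 5 mice, so the 10 mice of a group gave n = 2 libraries, and every standard deviation (s.d.) below is a spread between 2 pools. The labels name cFos-Cre:Ribotag animals and the dorsal hippocampus, whereas the methods of the study describe C57BL/6J mice given AAV vectors for the c-Fos-driven Cre and the tagged Rpl22, followed by microdissection of CA1. The tag was set by c-Fos activity on day 0 and not by a cell type, so inhibitory neurons that were active then could carry it too. The labels put library 1 of each group in batch 1 and library 2 of each group in batch 2.

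Granins are acidic proteins that are packed into dense-core vesicles of neurons and endocrine cells, where they help to form the vesicle and are themselves cut into peptides. Neuropeptides are made as longer precursors, cut by convertases inside the same vesicles and released when firing is strong or sustained, after which they act on G protein-coupled receptors. Several of these genes are transcribed in response to neuronal activity through cAMP and calcium, which activate the transcription factor CREB at CRE sites in promoters. In the hippocampus dynorphin is known from dentate granule cells, and Crh, Tac2 and part of the Penk signal are known from inhibitory neurons, while Vgf, Scg2 and Chgb are made by pyramidal neurons as well.

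The promoters of these genes were searched for the sites through which activity is known to act, because members with and without a CRE could then be set beside their measured changes. RefSeq promoters from the GRCm38.p6 table, each a window of 300 bases around a transcription start, were available for 7 of the 10 genes and not for Vgf, Penk and Crh. The complete CRE, TGACGTCA, lay in the windows of 2 genes, Scg2 and Chgb, and in 1.79% of the 32851 promoters of the table, or in 2.03% of its 27025 genes. The shorter core TGACG, counted on both strands and also present inside the complete CRE, lay in 5 of the 7 genes, Scg2, Scg3, Chga, Chgb and Adcyap1, and in 20.8% of all promoters, or 23.0% of all genes. The AP-1 site TGANTCA lay in none of the 7 genes and in 7.81% of all promoters, or 8.97% of all genes, and the letters GGACAGC, from the end of the RE1 site of the neuronal repressor REST, lay in Scg2 and Adcyap1 and in 6.56% of all promoters, or 7.59% of all genes. The TATA box TATAAA lay in Chga, after its start, and in Adcyap1 and in 13.6% of all promoters, or 15.7% of all genes. The 30 bases around the CRE or its core are shown 5′ to 3′ on the strand of the gene, at the GRCm39 positions where the RefSeq sequence matched exactly. The match stands in capitals, to show how the complete sites of Scg2 and Chgb differ from the cores of the other genes.

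Scg2 (chr1:79417793-79417822, minus strand): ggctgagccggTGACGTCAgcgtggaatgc
Chgb (chr2:132623479-132623508, plus strand): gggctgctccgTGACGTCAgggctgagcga
Adcyap1 (chr17:93506342-93506371, plus strand): ggactaggatgcTGACGtcttttactgata
Scg3 (chr9:75591351-75591380, minus strand): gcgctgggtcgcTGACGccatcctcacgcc
Chga (chr12:102521144-102521173, plus strand): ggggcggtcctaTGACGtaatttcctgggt

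The matches began 68 bases before the start in Scg2, 72 in Chgb, 91 in Adcyap1, 30 in Scg3 and 44 in Chga. Adcyap1 had another start 151 bases further on, and the same core lay 242 bases before that one. The matches of Adcyap1 to TATAAA and GGACAGC began 58 and 84 bases before this other start. Neither lay in the window of the start used for the sequences shown. For Adcyap1, which lay higher in SD than in NSD and passed with the block, the 250 bases before the start that coincides with the deposited gene start (GRCm39 chr17:93506195-93506444, plus strand) are shown with the same core in capitals.

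Adcyap1 promoter: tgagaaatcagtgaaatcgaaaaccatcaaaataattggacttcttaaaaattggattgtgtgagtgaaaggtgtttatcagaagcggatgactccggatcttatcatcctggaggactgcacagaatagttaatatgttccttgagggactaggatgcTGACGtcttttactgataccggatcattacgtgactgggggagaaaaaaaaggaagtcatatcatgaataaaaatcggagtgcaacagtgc

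The genes with the complete CRE, Scg2 and Chgb, had log2 fold changes of 0.013 and -0.11 between SD and NSD, and Adcyap1, Scg3 and Chga, which have only the core in these windows, had 0.38, -0.007 and 0.057. Pdyn and Tac2, with no match to any of these motifs, had -0.42 and -0.091. Letters that match a motif describe these windows and do not show that a factor bound there.

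The 4 libraries held 153511705 to 195910235 counts, with 26179 to 27551 genes counted at least once, and scaling factors from 0.965 to 1.02. Values in CPM are counts scaled to 1 common library total with TMM factors. The p-values measure the spread between pools. Of the markers that check the tissue, the CA1 genes Wfs1, Fibcd1 and Pou3f1 were present at 146 to 441 CPM in NSD and 150.4 to 355 CPM in SD. Of the 10 CA1 markers 0 were called by edgeR without the block and 6 were at an unadjusted p under 0.05, in either direction, while 3 were called higher and 4 lower with it. Wfs1 (log2 fold change -0.389 without the block) and Fibcd1 (-0.347) were among the lower. Over the 10 markers, 5 had a log2 fold change above 0 and 5 below. For these marker counts, the shares over all tested genes were 2.99% called higher and 8.47% lower with the block, and 6.86% higher and 12.2% lower at an unadjusted p under 0.05. Their sum ranged from 1750 to 2008 CPM in NSD and from 1803 to 1978 CPM in SD. All 10 endothelial markers were below 0 on the log2 fold change scale, as were 11805 of all 22338 tested genes. Of the 10, 0 were called by edgeR without the block, 5 were called lower with it and 4 lower with DESeq2. The 10 summed to 61.0 and 80.6 CPM in NSD and 55.3 and 41.7 CPM in SD. Gad1, which makes GABA in inhibitory neurons, was at 312 to 332 CPM in NSD and 311 to 318 CPM in SD, so RNA of inhibitory neurons was also in the pulldown. The 12 GABAergic markers summed to 1248 to 1299 CPM in NSD and 1210 to 1289 CPM in SD, and 0 of the 12 were called by edgeR, with or without the block, or by DESeq2, with 2 at an unadjusted p under 0.05. The 10 dentate granule markers summed to 382 to 435 CPM in NSD and 406.6 to 406.7 CPM in SD, with 0 called by edgeR without the block, 2 at an unadjusted p under 0.05, and 1 called higher and 1 lower with the block. The 10 neocortex pyramidal markers summed to 466 and 464 CPM in NSD and 520 and 554 CPM in SD, with 8 above 0, 0 called by edgeR without the block, 3 at an unadjusted p under 0.05, and 3 called higher with the block and with DESeq2. Among the 3 called was Nr4a2, an activity-induced gene that is also counted among the CREB and calcium response genes below. It was at 153 and 166 CPM in NSD and 186 and 214 CPM in SD, so the rise of the sum is in part that of Nr4a2. Fos, the activity gene that drives the tag, was at 271 and 513 CPM in NSD libraries 1 and 2 and at 336 and 375 CPM in SD libraries 1 and 2, so the NSD libraries lay on either side of the SD libraries. The 10 astrocyte markers summed to 3714 and 3223 CPM in NSD and 3816 and 3830 CPM in SD. The 10 oligodendrocyte markers summed to 1971 and 1638 CPM in NSD and 1906 and 1810 CPM in SD. RNA of glia was thus also in the pulldown. Without the block edgeR called 0 genes of either list. With it 0 astrocyte markers and 1 oligodendrocyte marker were called, the latter higher. The part of these markers and of Fos in the results on the 10 genes was not tested.

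Most of the counts of the 10 genes came from the 5 granins. On the CPM scale, not per length, the granins together held 865 and 1015 CPM in NSD and 991 and 1056 CPM in SD, against 31.15 and 33.4 CPM and 28.7 and 28.1 CPM for the peptides. Per kilobase of merged exons, the order of the levels in NSD ran from Vgf to Pdyn and was the same in SD. Vgf was highest, at 141 ± 24.0 CPM per kilobase in NSD (s.d., n = 2), followed by Scg2 at 101 ± 8.10 and Chgb at 26.8 ± 0.0519. Scg3 at 10.96 ± 0.593 and Chga at 10.04 ± 1.38 had overlapping ranges over the 4 libraries, and no other neighbours in this order did. Below them came Penk at 5.26 ± 0.273 and Adcyap1 at 1.65 ± 0.208 CPM per kilobase in NSD. Crh at 1.23 ± 0.0615, Tac2 at 0.707 ± 0.0276 and Pdyn at 0.482 ± 0.0596 closed the order. The middle of the order depended on the length used. With the length of the longest protein-coding transcript, Chga was at 29.4 CPM per kilobase in NSD, beside 27.95 for Chgb and 15.35 for Scg3, and Tac2 at 1.46 lay above Crh at 1.23.

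**Figure D1:**
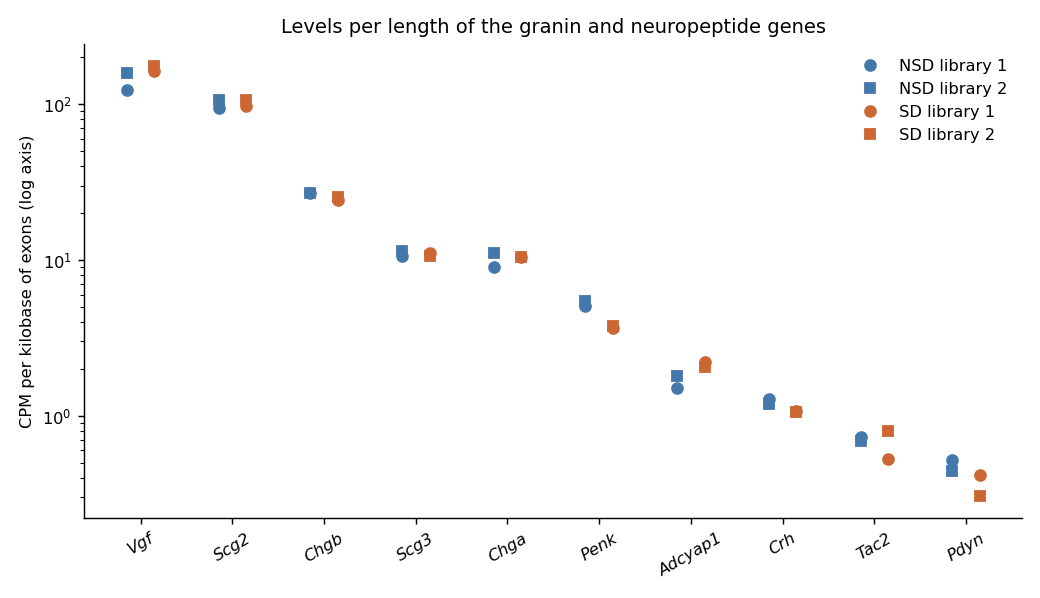
Levels of the 10 genes in CPM per kilobase of merged exons, on a log axis, with blue for NSD and orange for SD, circles for library 1 and squares for library 2. Vgf and Scg2 lie near 100 CPM per kilobase and Pdyn below 1, and only Scg3 and Chga share their range.

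A gene was called at an edgeR adjusted p under 0.05 with a fold change over 1.2. Of the 10 genes, 0 were called higher and 1, Penk, was called lower, where 0.770% and 2.33% of all tested genes were called higher and lower. With the batch number as a replicate block in the same test, 2 of the 10 were called higher and 1 lower, where 2.99% and 8.47% of all tested genes were. DESeq2, run without the block, called 1 higher, Adcyap1, and 1 lower, Penk, beside 2.99% and 5.79% of all tested genes, or 8.79% in either direction. For edgeR with the block the share in either direction was 11.5%. The groups did not overlap for 6 of the 10 genes, where SD was the higher for 2, Vgf and Adcyap1, and the lower for 4, Chgb, Penk, Pdyn and Crh, compared with 22.0% and 27.5% of all tested genes. At an unadjusted p under 0.05 there were 1 higher and 1 lower of the 10, against 6.86% and 12.2% of all tested genes. The median log2 fold change of the 10 was -0.049, of the 5 granins 0.013 and of the 5 peptides -0.207, while it was -0.016 over all tested genes and 0.018 over the 15551 protein-coding genes among them.

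**Figure D2:**
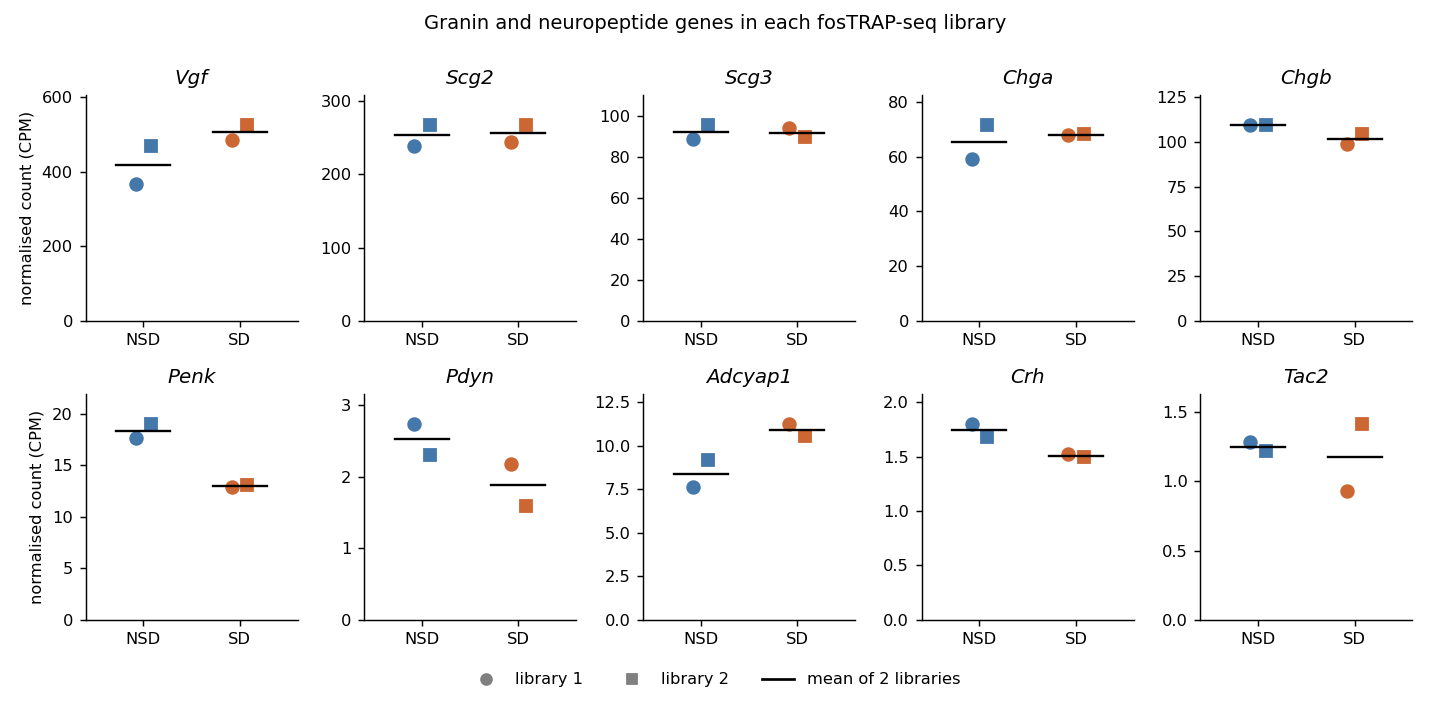
Normalised counts of the 10 genes in CPM, 1 panel a gene with its own axis from 0, blue for NSD and orange for SD, circles for library 1, squares for library 2 and lines for the mean of 2 libraries. The SD libraries lie below the NSD libraries for Penk and above them for Vgf and Adcyap1, and Scg2, Scg3, Chga and Tac2 overlap between groups.

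Penk (ENSMUSG00000045573, GRCm39 chromosome 4 from 4133531 to 4138819, minus strand) encodes proenkephalin, the precursor of Met- and Leu-enkephalin. Its levels were 17.7 and 19.0 CPM in NSD libraries 1 and 2 and 12.8 and 13.1 CPM in SD libraries 1 and 2. The groups did not overlap, and the gap between them was larger than the spread within either. Penk fell from 18.4 ± 0.953 CPM (s.d., n = 2) to 12.95 ± 0.152 CPM (s.d., n = 2). The log2 fold change was -0.50 (SE, the standard error, 0.089; 95% interval -0.71 to -0.30; edgeR adjusted p = 0.0379). Within batch 1 the log2 ratio of SD to NSD was -0.46 and within batch 2 it was -0.54. The fall passed with the block (edgeR adjusted p = 0.00125) and with DESeq2 (adjusted p = 0.000349). Its call was lost without NSD library 2 (log2 fold change -0.449, edgeR adjusted p = 0.0588), with no count filter (0.0524) and with edgeR's filterByExpr (0.0628), at much the same log2 fold change. With no count filter 50 genes were called higher and 80 lower of all 28193, and with filterByExpr 1 and 0 of 24323, so the losses in these filter settings were not particular to Penk. The loss without NSD library 2 is not covered by these counts. The summed GABAergic markers given above overlapped between the groups, and their part in the fall of Penk was not tested. The 8 striatum and septum markers summed to 118 and 128 CPM in NSD and 122 and 134.5 CPM in SD, with 5 above 0 and 3 below and 0 called by edgeR, with or without the block, or by DESeq2, and 0 at an unadjusted p under 0.05. Of its first 3 genes, Ppp1r1b was at 21.3 and 27.1 CPM in NSD and 26.5 and 30.2 CPM in SD, and Adora2a and Gpr6 were at 0.439 to 0.772 CPM over the 4 libraries. Their part in the fall of Penk was not tested. In bulk pulldowns, fewer tagged cells that make a peptide and less of its RNA per cell cannot be told apart. Exons of Penk share 390 bases with A830012C17Rik on the opposite strand, whose count was 0.217% of the Penk count. Shorter exon overlaps on the opposite strand were annotated for Scg3, Chgb and Adcyap1, of 178, 337 and 267 bases, with genes that had no row.

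Pdyn (ENSMUSG00000027400, chromosome 2 from 129528485 to 129541764, minus strand) encodes prodynorphin, the other opioid precursor of the list. It was lowly counted, with 2.74 and 2.30 CPM in NSD and 2.17 and 1.59 CPM in SD, from 300 to 454 counts a library. Its SD libraries also lay below its NSD libraries, but the nearest values, 2.30 and 2.17 CPM, were closer to each other than the 2 libraries of either group. The log2 fold change was -0.42 (95% interval -0.97 to 0.12, edgeR adjusted p = 0.398), so the interval held both no change and a fall as large as that of Penk. With the block the 95% interval of -0.85 to -0.018 lay below 0, but the call was not made (edgeR adjusted p = 0.168). Leaving out SD library 1 gave -0.666 and leaving out SD library 2 gave -0.205.

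Adcyap1 (ENSMUSG00000024256, chromosome 17 from 93506445 to 93513965, plus strand) encodes PACAP, a peptide that raises cAMP through its receptor. Its levels were 7.65 and 9.15 CPM in NSD and 11.3 and 10.6 CPM in SD. The groups did not overlap, and the NSD libraries differed from each other more than the SD libraries did. From 8.40 ± 1.06 CPM to 10.9 ± 0.498 CPM (s.d., n = 2 each), the log2 fold change was 0.38 (SE 0.12, 95% interval 0.10 to 0.65, edgeR adjusted p = 0.128). With the block it passed (0.38, edgeR adjusted p = 0.0313), as it did with DESeq2 (0.40, adjusted p = 0.0446). The log2 ratio was 0.56 within batch 1 and 0.21 within batch 2, and the estimate lay between 0.28 and 0.51 whichever library was left out.

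Crh (ENSMUSG00000049796, chromosome 3 from 19747565 to 19749560, minus strand) encodes corticotropin-releasing hormone, which acts in the hippocampus as a local stress peptide. It had 1.80 and 1.68 CPM in NSD and 1.52 and 1.497 CPM in SD, from 264 to 299 counts a library. Both SD libraries were lower, by an amount that did not pass the test (log2 fold change -0.21, 95% interval -0.74 to 0.33, edgeR adjusted p = 0.719), and the value was -0.126 with NSD library 1 left out. Tac2 (ENSMUSG00000025400, chromosome 10 from 127560347 to 127567637, plus strand), the mouse gene for neurokinin B, had 1.28 and 1.22 CPM in NSD and 0.929 and 1.42 CPM in SD. The SD libraries lay on either side of the NSD libraries, and the log2 fold change of -0.091 (95% interval -0.78 to 0.60, edgeR adjusted p = 0.918) turned to 0.181 without SD library 1.

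Vgf (ENSMUSG00000037428, chromosome 5 from 137055246 to 137062205, plus strand) encodes a granin-like precursor that neurotrophins and firing are known to induce. Its levels were 368 and 469 CPM in NSD libraries 1 and 2 and 486 and 526 CPM in SD libraries 1 and 2. Both SD libraries were above both NSD libraries, although NSD library 2 was nearer to SD library 1 than to NSD library 1. From 418 ± 71.4 CPM to 506 ± 28.9 CPM (s.d., n = 2 each), the log2 fold change was 0.27 (SE 0.12, 95% interval -0.002 to 0.55, edgeR adjusted p = 0.266). With the block the estimate was 0.28 with a 95% interval of 0.12 to 0.45 and passed (edgeR adjusted p = 0.0246), just above the fold change of 1.2. DESeq2 gave 0.30 (adjusted p = 0.0634), which did not pass here, whereas the study names Vgf among the genes that its own DESeq2 run found upregulated. The log2 ratio was 0.40 within batch 1 and 0.17 within batch 2, and leaving out NSD library 1 gave a log2 fold change of 0.139, while leaving out NSD library 2 gave one of 0.46.

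Scg2 (ENSMUSG00000050711, chromosome 1 from 79412386 to 79417837, minus strand) encodes secretogranin II, the precursor of secretoneurin and a known CREB target. It had 239 and 268 CPM in NSD and 245 and 267 CPM in SD. The groups overlapped, and in both of them library 2 was the higher. The log2 fold change was 0.013 (SE 0.089, edgeR adjusted p = 0.965), and its 95% interval of -0.19 to 0.22 left out a rise or fall of 1.2 times. The sign was not stable, at -0.008 with protein-coding genes only.

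Scg3 (ENSMUSG00000032181, chromosome 9 from 75550471 to 75591338, minus strand) encodes secretogranin III, which tethers other granins to the vesicle membrane. Its range was 88.9 to 95.9 CPM in NSD and 89.8 to 94.1 CPM in SD, with the SD libraries inside the NSD range. The log2 fold change was -0.007 (95% interval -0.17 to 0.15, edgeR adjusted p = 0.975), a value that turned to 0.016 with DESeq2. Chga (ENSMUSG00000021194, chromosome 12 from 102521228 to 102531287, plus strand) encodes chromogranin A and had 59.0 and 71.7 CPM in NSD and 67.7 and 68.3 CPM in SD. Here too the SD libraries lay between the NSD libraries (log2 fold change 0.057, 95% interval -0.16 to 0.27, edgeR adjusted p = 0.818), and without NSD library 1 the log2 fold change was -0.047. Chgb (ENSMUSG00000027350, chromosome 2 from 132623198 to 132636999, plus strand) encodes chromogranin B. It had 109.5 and 109.8 CPM in NSD and 99.0 and 104.4 CPM in SD, so both SD libraries were lower by a small amount (log2 fold change -0.11, 95% interval -0.26 to 0.042, edgeR adjusted p = 0.436; 0.235 with the block). With SD library 1 left out it was -0.072.

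**Figure D3:**
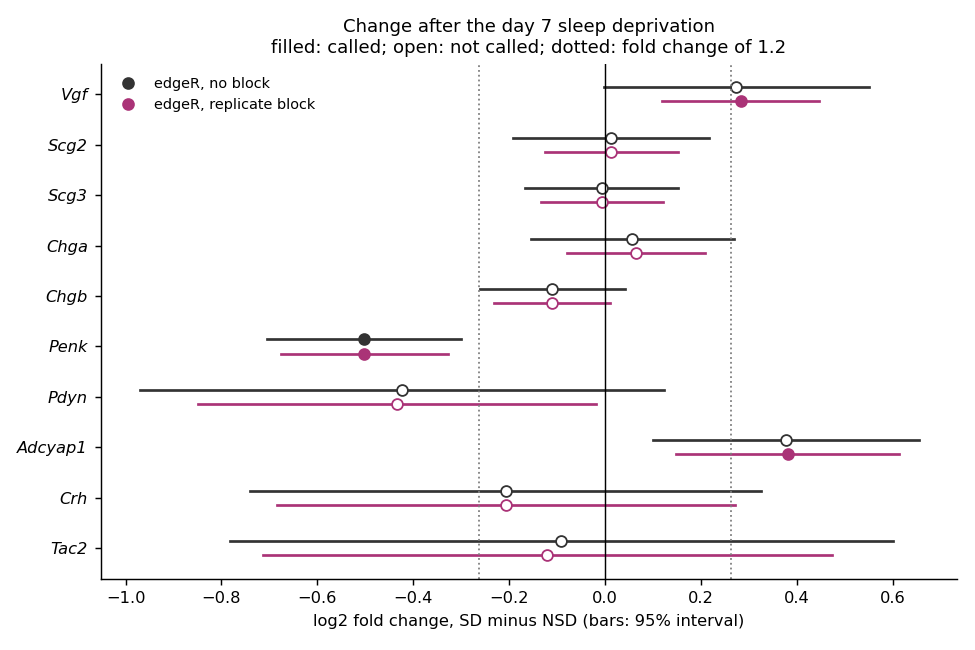
Log2 fold change of SD minus NSD for each of the 10 genes, with 95% intervals as bars, black without and purple with the replicate block, filled points for called genes and dotted lines at a fold change of 1.2. Penk is filled in both fits at -0.50, Vgf and Adcyap1 only with the block, and the intervals of Pdyn, Crh and Tac2 are the widest.

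The genes that make and release peptides were described from a list of 30 genes for convertases, trimming and amidating enzymes and dense-core vesicle proteins, of which 29 were in the table and tested. Of these 29, 0 were called by edgeR without the block, where 3.10% of all tested genes were, and 5 were higher at an unadjusted p under 0.05, where 6.86% were. With the block 2 of the 29 were called higher and with DESeq2 1, where 2.99% of all tested genes were in either fit. The median log2 fold change of the list was 0.058, with 21 genes above 0 and 8 below. Cyb561, which carries electrons across the membrane of secretory vesicles for peptide amidation, had 49.9 and 65.1 CPM in NSD and 70.6 and 72.8 CPM in SD. Its groups did not overlap (log2 fold change 0.32, SE 0.11, edgeR adjusted p = 0.169), and it passed with the block (edgeR adjusted p = 0.00885) and with DESeq2 (adjusted p = 0.0447). Without the block it passed when NSD library 2 was left out (log2 fold change 0.523) or SD library 1 was (0.34), and was at 0.168 without NSD library 1. Syt4, a synaptotagmin of dense-core vesicles and a known activity-induced gene, had 164 and 208.5 CPM in NSD and 218 and 229.8 CPM in SD. It had a log2 fold change of 0.27 (SE 0.11, edgeR adjusted p = 0.242) and passed with the block (edgeR adjusted p = 0.0234) but not with DESeq2 (adjusted p = 0.0713). Without the block it passed when NSD library 2 was left out (0.45, edgeR adjusted p = 0.0378) and was at 0.132 without NSD library 1. The convertase gene Pcsk1 was at 22.6 and 24.1 CPM in NSD and 26.1 and 28.9 CPM in SD, with a log2 fold change of 0.23 under the fold change threshold (edgeR adjusted p = 0.174; 0.0382 with the block). The convertase gene Pcsk2 and the carboxypeptidase gene Cpe were at 362 to 407 and 641 to 756 CPM over the 4 libraries, and their groups overlapped. Per kilobase of merged exons, the NSD levels were 2.85 CPM for Pcsk1, 34.3 CPM for Pcsk2 and 195 CPM for Cpe.

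The receptors and binding proteins of these peptides were described from a list of 17 genes, of which 16 were in the table and tested. Without the block 0 of the 16 were called by edgeR, 3 were at an unadjusted p under 0.05, and 2, Oprd1 and Vipr1, were called higher both with the block and with DESeq2. The 3 were all higher. Over all tested genes 2.99% were called higher with the block and 2.99% with DESeq2, and 6.86% were higher at an unadjusted p under 0.05. Oprd1 encodes the delta opioid receptor, which enkephalins bind. It had 36.6 and 34.2 CPM in NSD and 49.6 and 42.6 CPM in SD. Both SD libraries were higher (log2 fold change 0.38, SE 0.087, edgeR adjusted p = 0.0570; 0.0015 with the block), in the direction opposite to Penk. Without SD library 2 it passed (0.497, edgeR adjusted p = 0.00106), and it did not pass without SD library 1 (0.268, edgeR adjusted p = 0.176), NSD library 1 (0.458, 0.0573) or NSD library 2 (0.334, 0.105). Vipr1 encodes a receptor that VIP and PACAP share. It had 23.7 and 23.1 CPM in NSD and 28.5 and 29.0 CPM in SD, with a log2 fold change of 0.30 (SE 0.074, edgeR adjusted p = 0.0689; 0.0108 with the block). Adcyap1r1, the receptor that prefers PACAP, was at 144 and 137 CPM in NSD and 163 and 153 CPM in SD. Its log2 fold change was 0.17 (95% interval 0.005 to 0.34, edgeR adjusted p = 0.247; 0.0779 with the block), under the fold change threshold. Crhbp, which binds and holds back CRH, was at 60.3 and 58.7 CPM in NSD and 57.0 and 48.3 CPM in SD, and did not pass (edgeR adjusted p = 0.326), with a log2 fold change of -0.3 without SD library 1 and -0.049 without SD library 2.

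Of the other neuropeptide precursors on a list of 45 symbols, 31 had a row in the table and 26 were tested. The list was broad. It also held Ren1, Nxph1 and Cbln1, which are not neuropeptide precursors, and Penk2, which is not a mouse gene. Nxph1 and Cbln1 were among those tested. Nts, the neurotensin precursor, was called higher by edgeR without the block, and Apln was added and Sst was called lower with the block, so that 1 of 26 genes was called higher without the block and 2 higher and 1 lower with it. Over all tested genes 0.770% were called higher without the block, and 2.99% higher and 8.47% lower with it. Nts had 7.76 and 11.02 CPM in NSD and 15.7 and 18.3 CPM in SD. Its SD libraries were both above the NSD libraries, and its log2 fold change of 0.86 (SE 0.16, edgeR adjusted p = 0.0397; 6.8e-05 with the block) was larger in size than that of any of the 10 genes. The call of Nts was lost with no count filter (edgeR adjusted p = 0.0524), with filterByExpr (0.0648) and with protein-coding genes only (0.0501). Apln, the apelin precursor, had 9.10 and 8.84 CPM in NSD and 12.0 and 11.02 CPM in SD (log2 fold change 0.36, edgeR adjusted p = 0.0996; 0.0222 with the block). Sst, the somatostatin precursor of a class of inhibitory neurons, had 120 and 106 CPM in NSD and 109 and 73.6 CPM in SD. The Sst groups overlapped (log2 fold change -0.31, edgeR adjusted p = 0.347; 0.0118 with the block; DESeq2 adjusted p = 0.661), and the log2 fold change was -0.621 without SD library 1, where Sst passed (edgeR adjusted p = 1.31e-05), and -0.04 without SD library 2. Cck, which both pyramidal and inhibitory neurons make, was at 152 and 182 CPM in NSD and 136 and 151 CPM in SD, with a log2 fold change of -0.22 under the threshold (edgeR adjusted p = 0.289; 0.0341 with the block), and leaving out NSD library 2 gave -0.082 while leaving out NSD library 1 gave -0.312.

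**Figure D4:**
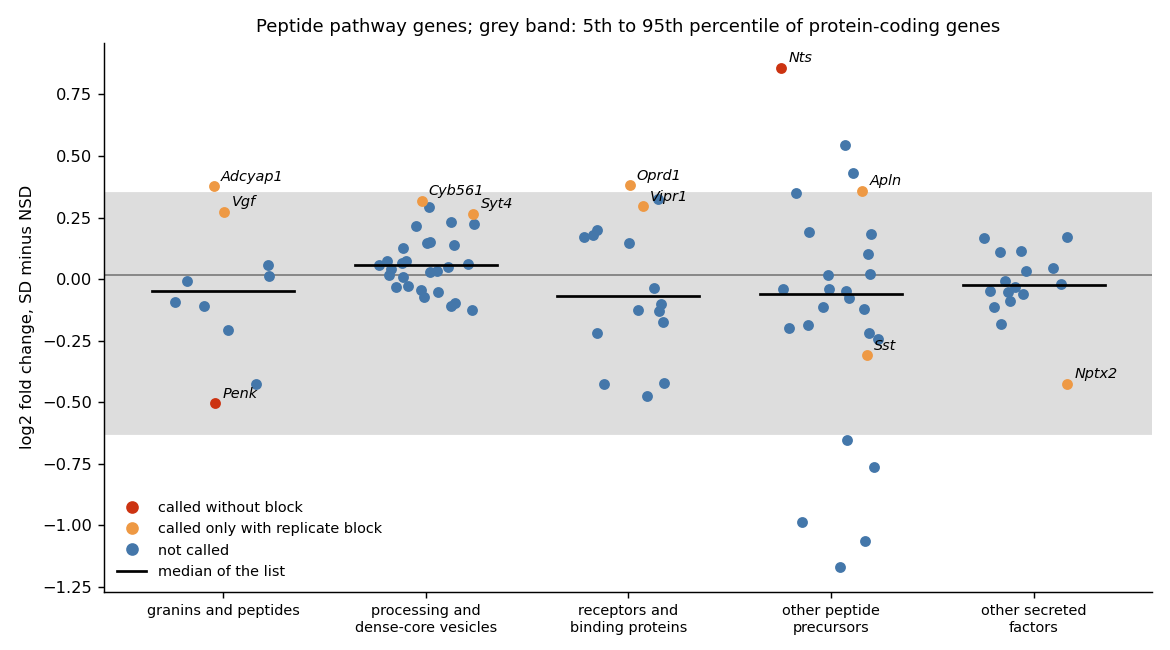
Log2 fold change of SD minus NSD for each tested gene of the 5 lists, 1 column a list, with red points for genes called without the block, orange for those called only with it, blue for the rest, black lines for list medians, a thin line for the median of protein-coding genes (0.018) and a grey band from the 5th to the 95th percentile of protein-coding genes (-0.63 to 0.35). Penk and Nts are the red points, on opposite sides of 0, and most genes of each list lie inside the band.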

How the data were processed

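The deposited table holds estimated counts per gene, 1 column a library. The authors trimmed 3′ bases, aligned the reads with STAR to mm39 (GRCm39) and quantified Ensembl genes with the expectation-maximization model of Partek, without normalization, and 55.6% of the genes have a value that is not whole. This model shares reads among overlapping genes, so genes with shared exons are less certain. Whether the counting used the strand is not given in the sources used here. Counts were rounded and tested with edgeR 4.0.16 in R 4.3.3 (TMM, quasi-likelihood, condition as the only term) over the 22338 genes above 5 counts in all libraries, with Benjamini-Hochberg adjustment. A gene was called past a fold change of 1.2 at an adjusted p under 0.05, the thresholds of the study, which used DESeq2. edgeR estimated a common dispersion of 0.0296, with 6.38 prior degrees of freedom.

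Batch numbers in the labels equal the replicate numbers, which therefore pair the libraries, and same-numbered libraries deviated together (correlation 0.289 across 22338 genes). The fit with this block, DESeq2 1.42.0, DESeq2's size factors, no filter, filterByExpr, protein-coding genes only and each library left out in turn were the alternatives. Exon lengths and overlaps came from GENCODE on GRCm39, and promoters from RefSeq. Members and lists were chosen with earlier results of these data known. The genes named are the 10 members and list genes called with or without the block, and Pcsk1, Pcsk2, Cpe, Adcyap1r1, Crhbp, Cck, Bdnf and Fos were added for their roles after their values had been seen. Marker genes named are among the first 3 of their list, apart from Nr4a2, which is also a CREB and calcium response gene. Ren1, Nxph1, Cbln1 and Penk2 are named only as entries of their list. Precursor proteins were not analysed here.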

Additional observations from a re-analysis of the deposited data

How the results depend on the processing

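With the replicate block the calls rose from 1 to 3 of the 10 genes, from 0 to 2 of the processing and vesicle genes, from 0 to 2 of the receptors, from 1 to 3 of the other peptides, from 0 to 1 of the other secreted factors and from 3 to 7 of the CREB and calcium response genes. DESeq2 gave 2, 1, 2, 2, 1 and 7. Calls over all tested genes rose as well, from 3.10% to 11.5% with the block and 8.79% with DESeq2, so a rise in a list is not particular to it. With no filter the counts were 0 for the 10 genes and 0 for the other peptides, with filterByExpr 0 for both and 0 for the CREB and calcium response genes, and with protein-coding genes only 0 for the other peptides. Over all genes these settings called 50 higher and 80 lower, 1 and 0, and 51 and 39. With 1 library left out, where the lone library of its group is assumed to vary like the others, the counts ranged from 0 to 1 for the 10 genes, 0 to 2 for processing genes, 0 to 1 for receptors, 1 to 3 for other peptides, 0 to 1 for secreted factors and 2 to 5 for the CREB and calcium response genes. Calls over all tested genes then ranged from 124 to 308 higher and from 78 to 1955 lower, with the fewest without NSD library 1 and the most lower without SD library 1. The median log2 fold change of the 10 genes then ranged from -0.088 to 0.012. Signs turned for values near 0. Scg2 was at -0.008 with protein-coding genes only and ranged from -0.04 to 0.097 with a library left out. Scg3 was at 0.016 with DESeq2, 0.016 with its size factors and 0.021 with no filter, and ranged from -0.041 to 0.049. Chga ranged from -0.047 to 0.205, Tac2 from -0.416 to 0.181, Pcsk2 from -0.03 to 0.1, Cpe from -0.113 to 0.096 (0.001 with no filter) and Bdnf from -0.123 to 0.053. Penk ranged from -0.526 to -0.449. The cause of these shifts was not tested. Pdyn, Crh and Tac2 had under 500 counts a library, and their intervals were the widest of the 10 genes.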

Other observations

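A list of 17 secreted factors known to respond to activity, 16 of them tested, had 0 genes called by edgeR without the block, 1 at an unadjusted p under 0.05 and 1, Nptx2, called lower with the block and with DESeq2, where 8.47% and 5.79% of all tested genes were called lower and 6.86% and 12.2% were higher and lower at an unadjusted p under 0.05. Nptx2, a pentraxin that gathers AMPA receptors, had 25.6 and 33.1 CPM in NSD and 20.7 and 23.05 CPM in SD, with both SD libraries lower (log2 fold change -0.425, SE 0.12, edgeR adjusted p = 0.101; 0.00246 with the block; DESeq2 adjusted p = 0.0316). Without the block Nptx2 also passed when NSD library 1 was left out (-0.569) or SD library 2 was (-0.491), and was at -0.227 without NSD library 2. Bdnf was at 19.8 and 22.8 CPM in NSD and 20.0 and 21.1 CPM in SD, with overlapping groups (log2 fold change -0.053, 95% interval -0.27 to 0.16, edgeR adjusted p = 0.833).

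Among 16 CREB and calcium response genes, 3 were called higher by edgeR without the block, Arc, Nr4a1 and Sik1, with 9 higher and 1 lower at an unadjusted p under 0.05, a median log2 fold change of 0.245 and 6 called higher and 1 lower with the block. Over all tested genes 0.770% were called higher without the block, 2.99% higher and 8.47% lower with it, and 6.86% were higher and 12.2% lower at an unadjusted p under 0.05. Sik1, a kinase that CREB induces and that restrains the CREB coactivators, had 21.8 and 21.7 CPM in NSD and 31.7 and 33.3 CPM in SD (log2 fold change 0.58, SE 0.074, edgeR adjusted p = 0.0328). Arc, an immediate early gene of synapses, had 199 and 233 CPM in NSD and 386 and 426 CPM in SD (log2 fold change 0.91, SE 0.10, edgeR adjusted p = 0.0328). Nr4a1, an activity-induced nuclear receptor, had 90.6 and 105 CPM in NSD and 128 and 130.1 CPM in SD (log2 fold change 0.40, edgeR adjusted p = 0.0472), and lost its call without NSD library 1 (0.323, edgeR adjusted p = 0.0891), with no filter (0.0545), with filterByExpr (0.0734) and with protein-coding genes only (0.0651). Arc and Sik1 lost theirs with filterByExpr only (edgeR adjusted p = 0.0628 each). Fosb, Nr4a2 and Dusp1 were called higher with the block (edgeR adjusted p = 0.00388, 0.00416 and 0.0162) and with DESeq2, but not by edgeR without the block, at log2 fold changes of 0.60, 0.33 and 0.32. Fosb also passed without NSD library 2 (0.857), SD library 1 (0.576) or SD library 2 (0.645), and Nr4a2 without SD library 1 (0.423). Npas4, an activity-induced transcription factor, was the gene called lower with the block, at 5.57 and 4.68 CPM in NSD and 3.72 and 3.73 CPM in SD (log2 fold change -0.46, edgeR adjusted p = 0.16; 0.049 with the block). DESeq2 did not call Npas4 (adjusted p = 0.113), and without NSD library 1 it was at -0.299.

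In the NSD group library 2 was above library 1 by a log2 ratio of 0.35 for Vgf, 0.164 for Scg2, 0.281 for Chga and 0.258 for Adcyap1, and by 0.110 for Scg3, 0.106 for Penk and 0.004 for Chgb, while Pdyn, Crh and Tac2 went the other way, at -0.253, -0.102 and -0.080. For Fos the ratio was 0.921. For Vgf and Adcyap1 the log2 change within batch 1 was over 2 times that within batch 2, and for Penk the 2 batches gave -0.46 and -0.54.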
